A study of Rattus norvegicus with 98 samples.

Results

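Male F344/NCrl rats breathed 6 ppm formaldehyde on a schedule of 6 hours per day and 5 days per week, and nasal epithelial cells were taken at 8 days. The comparison set the 4 arrays of these rats against the 5 arrays of rats in air (0 ppm) of the same time, chosen by their titles from 98 arrays in the series. Per the series text the rats were 8 weeks old when exposed, whole-body, and each gave 1 array. The cells were released with proteases from a dissected level of the nose, which the series text describes as mainly transitional epithelium with some respiratory epithelium, and the labels state that olfactory epithelium was discarded. Rats at 2 ppm and at 0.7 ppm for 8 days (4 arrays each) and rats at 6 ppm and in air at 4 other times, from 6 hours to 19 days (4 arrays per group) were used to place the 8 day values. The labels do not say how long after the last exposure the 8 day animals were sampled.

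Formaldehyde is a reactive aldehyde that crosslinks proteins and DNA and is detoxified with glutathione. Electrophiles and oxidants modify cysteines of KEAP1, which then no longer drives the breakdown of the transcription factor NRF2; NRF2 pairs with a small Maf protein on the antioxidant response element and turns on genes for glutathione synthesis, thioredoxin repair and heme breakdown. Transitional epithelium lines part of the front of the rat nose, where much of the inhaled gas is taken up, and it is known for cell death, regrowth and squamous change under high concentrations of this gas.

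With 6 ppm at 8 days, a small group of stress genes was higher and no probe set was lower beyond the test's threshold. Of 31042 probe sets, 9 rose and 0 fell at a limma adjusted p under 0.05, which is 0.0290% of those tested. The smallest adjusted p of any probe set with a lower value was 0.060. At an unadjusted p under 0.05 there were 1907 probe sets, 6.14% of those tested. Hmox1, Srxn1, Maff and Tnfrsf12a had the strongest support, with rises of 2.34-fold to 3.06-fold, and Sqstm1 and Gpr83 rose by 1.33-fold and 1.82-fold. The remaining called probe sets were 1 of 3 sets annotated to Setd5 and 2 sets with no gene in the annotation used here. The test drew its estimate of the spread from all 98 arrays, and the call depended on that. Fitted on the 9 arrays alone or on the 17 arrays of 8 days alone, limma called 0 probe sets, with 1523 and 1562 at an unadjusted p under 0.05. The smallest adjusted p of those 2 fits among the 4 strongest genes was 0.092 in the first and 0.069 in the second.

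The promoter windows of the called genes Srxn1 and Tnfrsf12a, and of Osgin1 and Gclm, NRF2 pathway genes that were not called, are shown. They hold the letters TGANNNNGC (N is any base), searched here as a loose form of the antioxidant response element. Each window runs from 250 bases before to 50 bases after the annotated start, in RefSeq's GRCr8 assembly, and is printed 5′ to 3′ along the gene. Capitals mark the letters TGANNNNGC on either strand.
Srxn1 (chr3:161064562-161064861, + strand): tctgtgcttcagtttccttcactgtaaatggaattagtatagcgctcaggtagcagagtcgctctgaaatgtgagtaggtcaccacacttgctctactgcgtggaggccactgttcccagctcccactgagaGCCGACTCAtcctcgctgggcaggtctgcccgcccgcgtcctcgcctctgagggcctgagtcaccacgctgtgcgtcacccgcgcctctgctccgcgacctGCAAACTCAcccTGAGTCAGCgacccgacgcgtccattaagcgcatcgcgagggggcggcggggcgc
Tnfrsf12a (chr10:13213599-13213898, - strand): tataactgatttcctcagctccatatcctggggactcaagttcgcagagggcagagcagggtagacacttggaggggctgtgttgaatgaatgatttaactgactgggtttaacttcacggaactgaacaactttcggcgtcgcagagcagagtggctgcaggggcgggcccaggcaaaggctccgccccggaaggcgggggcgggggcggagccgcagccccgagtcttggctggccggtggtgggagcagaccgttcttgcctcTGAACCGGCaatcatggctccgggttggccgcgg
Osgin1 (chr19:64393651-64393950, + strand): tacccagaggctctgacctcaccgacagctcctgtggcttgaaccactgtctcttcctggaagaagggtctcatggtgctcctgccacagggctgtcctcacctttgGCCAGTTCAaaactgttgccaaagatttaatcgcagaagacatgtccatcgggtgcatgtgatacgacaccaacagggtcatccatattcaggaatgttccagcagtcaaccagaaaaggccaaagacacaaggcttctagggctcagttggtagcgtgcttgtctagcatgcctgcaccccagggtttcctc
Gclm (chr2:213031885-213032184, + strand): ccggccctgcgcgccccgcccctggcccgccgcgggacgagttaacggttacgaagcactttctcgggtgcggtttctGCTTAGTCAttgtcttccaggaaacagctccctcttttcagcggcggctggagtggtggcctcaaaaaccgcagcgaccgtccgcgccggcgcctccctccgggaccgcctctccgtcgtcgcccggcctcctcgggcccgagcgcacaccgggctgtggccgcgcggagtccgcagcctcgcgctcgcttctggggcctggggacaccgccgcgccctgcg
The Srxn1 window held 3 matches, 1 on the gene's strand and 2 on the opposite strand, and the other 3 windows held 1 each. The letters are common: 40.5% of all 33469 windows of this length held at least 1 match. Among the 20 measured NRF2 targets that had a window, 12 held one. Of the other genes looked up, Mafk held 2 matches and Slc7a11, Nqo1, Akr1b8 and Gpx2 held 1 each, while Maff, Sqstm1, Gpr83, Txnrd1, Gclc and Ptgs2 held 0. These matches describe the letters only, and binding of NRF2 to them was not tested.

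Hmox1, heme oxygenase 1, which breaks heme into biliverdin, iron and carbon monoxide, had log2 values of 10.01, 9.22, 9.30 and 9.36 in the exposed rats (animals 298, 299, 300 and 301, the order used throughout). In the air rats (animals 64, 65, 66, 67 and 68, likewise) Hmox1 was at 7.86, 7.50, 8.37, 8.39 and 7.56. All exposed rats were above all air rats, and animal 298 was the highest. Hmox1 (probe set 1370080_at) rose by 1.54 on the log2 scale (SE 0.22, 95% interval 1.09 to 1.98, 2.90-fold, limma adjusted p = 2.0e-05).

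Srxn1, sulfiredoxin, which repairs over-oxidised peroxiredoxins, stood at 10.32, 9.86, 10.09 and 9.18 with 6 ppm. In air Srxn1 stood at 8.62, 8.21, 8.24, 8.10 and 8.29. The groups did not overlap, and animal 301 was the lowest of the exposed rats. Srxn1 (1372510_at) rose by 1.57 (SE 0.23, 2.97-fold, limma adjusted p = 2.0e-05). A second Srxn1 probe set, 1384331_at, was higher by 1.30 (SE 0.29) with groups that did not overlap and an adjusted p of 0.054. The dimmest of the 3, 1381067_at, differed by -0.06 (SE 0.09).

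Maff, a small Maf protein that pairs with NRF2 on DNA and is itself a stress-inducible gene, had values of 8.20, 7.75, 8.30 and 7.61 in the exposed rats. The air rats had Maff values of 6.52, 6.36, 5.96, 6.95 and 5.96. Every exposed rat exceeded every air rat. Maff (1380229_at) rose by 1.62 (SE 0.24, 3.06-fold, limma adjusted p = 2.0e-05).

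Tnfrsf12a encodes the receptor of the cytokine TWEAK and is known as an injury-induced gene of epithelia. Its values with 6 ppm were 9.16, 8.59, 8.94 and 8.64. In air Tnfrsf12a was at 7.36, 7.08, 8.40, 7.79 and 7.39. The groups did not overlap, although animal 66 in air lay just under the lowest exposed rat. Tnfrsf12a (1371785_at) rose by 1.23 (SE 0.18, 2.34-fold, limma adjusted p = 2.0e-05). The ligand gene Tnfsf12 differed by 0.39 (SE 0.14, limma adjusted p = 0.60), and by 0.23 without air animal 67, which was at 6.57 with the others at 7.25 or more.

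Sqstm1, the autophagy receptor p62 that also binds KEAP1, was at 11.64, 11.58, 11.65 and 11.49 in exposed rats. In air Sqstm1 was at 11.04, 11.15, 11.17, 11.27 and 11.25. The difference was small and the groups were tight and apart. Sqstm1 (1371353_at) rose by 0.41 (SE 0.08, 1.33-fold, limma adjusted p = 0.014), and of its 3 other probe sets 1389381_at was higher by 0.34 (SE 0.11, adjusted p = 0.53). The remaining 2, both at low signal, differed by 0.05 and 0.02.

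Gpr83, a G protein-coupled receptor best known in brain, lay near the lower end of the array's scale. Its exposed values were 4.83, 4.02, 4.25 and 5.75. In air Gpr83 was at 3.87, 3.84, 3.74, 3.86 and 3.93. The exposed rats spread widely with animal 301 the highest, while the air rats were nearly alike. Gpr83 (1368299_at) rose by 0.86 (SE 0.17, limma adjusted p = 0.013), and without animal 301 the difference was 0.52 with an adjusted p of 0.45.

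Setd5, a chromatin regulator, was called through the probe set 1391170_at, at 6.37, 6.77, 6.35 and 5.04 in exposed rats. In air this probe set was at 5.23, 4.91, 5.31, 4.84 and 5.49. Here the groups overlapped, since animal 301 lay among the air rats. The difference for Setd5 was 0.97 (SE 0.21, limma adjusted p = 0.043), while the gene's 2 brighter probe sets, 1378705_at and 1399070_at, differed by -0.08 (SE 0.09) and -0.00 (SE 0.11). The probe sets 1396189_at and 1396190_x_at, which the annotation used here pairs with no gene, did not overlap between the groups. 1396189_at was at 8.29 to 8.69 with 6 ppm and at 7.40 to 7.73 in air, and rose by 0.90 (SE 0.18, limma adjusted p = 0.014). 1396190_x_at was at 8.45 to 8.87 with 6 ppm and at 7.71 to 8.02 in air, and rose by 0.75 (SE 0.15, limma adjusted p = 0.022).

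**Figure D1:**
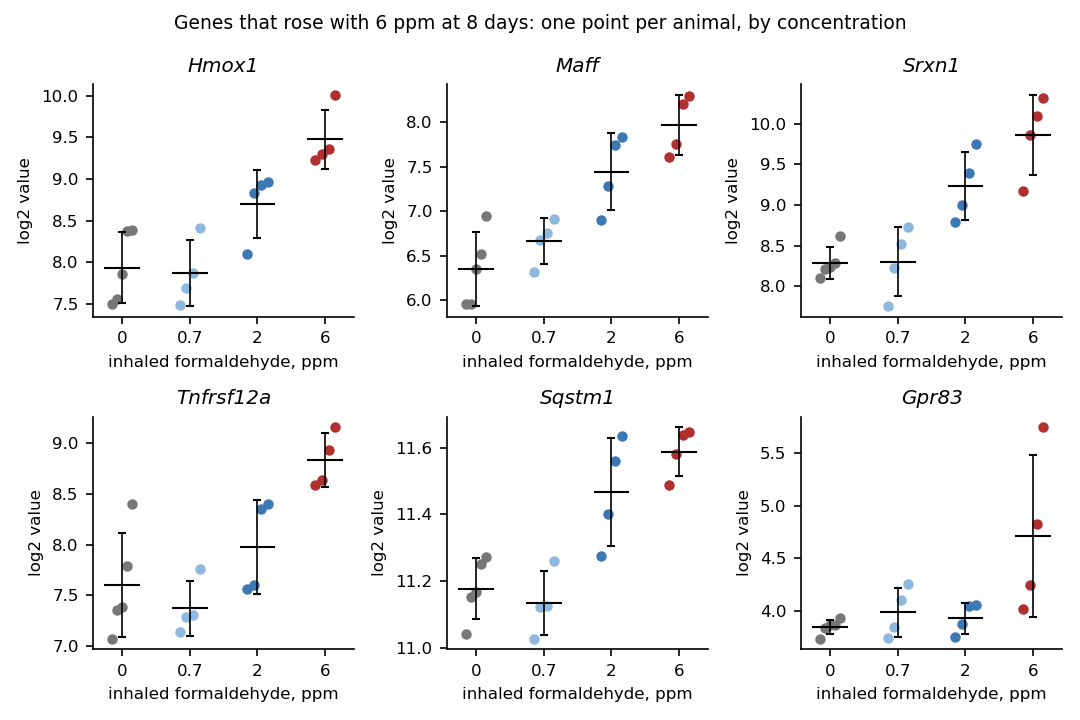
Log2 values (vertical axes) of the 6 genes that rose with 6 ppm at 8 days, by inhaled formaldehyde in ppm (horizontal axes); each point is 1 animal, the line and bar are the group mean and SD. The means of Hmox1, Maff and Srxn1 at 2 ppm sit between those of air and 6 ppm, 0.7 ppm overlaps air, and Gpr83 at 6 ppm is spread from 4.02 to 5.75.

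Leaving out each of the 9 rats in turn, Hmox1, Maff, Srxn1 and Tnfrsf12a were called in 9 of 9 fits, with adjusted p values up to 0.0021. Gpr83 was called in 6, Sqstm1 in 5, 1396189_at and 1396190_x_at in 4 each, and the Setd5 probe set in 2. The number called was 4 without animal 298, 15 without animal 299, 5 without animal 64 and 4 without animal 66, against 9 with all rats. RNA integrity also differed between the exposed and air rats of 8 days. The RNA integrity number was 7.8, 7.8 and 7.7 in exposed rats, with none given for animal 300, and 8.4, 8.8, 8.2, 8.2 and 8.2 in air, so the groups did not overlap. The rats at 2 ppm that have a value were at 8.3, 8.1 and 7.9. At the other times of 6 ppm, the exposed and air rats that have a value overlapped in this number. A limma fit with the RNA integrity number as a covariate dropped animal 300 and called 7 probe sets, all of them among the 9. Hmox1 (adjusted p = 0.00032), Maff (0.00032), Srxn1 (1.8e-05), Tnfrsf12a (0.0071) and Gpr83 (0.037) were past the threshold in it. Sqstm1 (0.063) and the Setd5 probe set (0.31) were not. The slope of that covariate came from differences within groups. Because the number was apart between exposed and air rats, RNA integrity and exposure cannot be told apart at 8 days.

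NRF2 targets were higher in the exposed rats as a list, and a minority of them passed the test. Of 22 measured targets, 3 rose (Hmox1, Srxn1 and Sqstm1), where 0.0422% of 14217 genes rose. A further 8 did not pass the test but kept exposed and air rats fully apart, giving 11 of 22 whose groups did not overlap in the upward direction, beside 1.27% of all genes. The median log2 difference over the 22 targets was 0.24, beside 0.01 over all genes, and 18 of them were above 0. The mean over the list was 10.70 to 10.85 in exposed rats and 10.30 to 10.47 in air. The list was chosen with earlier results of these arrays known, so its counts are a description.

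Osgin1, an oxidative stress-induced growth inhibitor, was at 10.00, 9.60, 9.96 and 9.68 with 6 ppm. In air Osgin1 was at 9.13, 8.84, 8.99, 8.92 and 9.20. The groups did not overlap, but the difference of 0.79 (SE 0.18) had a limma adjusted p of 0.068. Slc7a11, the cystine importer that feeds glutathione synthesis, was at 8.20, 7.38, 7.75 and 7.59 with 6 ppm. In air Slc7a11 was at 7.05, 6.34, 6.99, 6.59 and 5.05. The exposed rats were all higher, and animal 68 in air was well below the rest. The Slc7a11 difference was 1.33 (SE 0.33, 2.51-fold, limma adjusted p = 0.18). Both were called with the air rats of 5, 8 and 19 days as the control. Osgin1 then differed by 0.95 (limma adjusted p = 0.00014) and Slc7a11 by 1.56 (adjusted p = 0.0025).

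Gclc and Gclm, the catalytic and modifier subunits of the enzyme that begins glutathione synthesis, differed by 0.56 (SE 0.16, limma adjusted p = 0.40) and 0.58 (SE 0.17, adjusted p = 0.40). Txnrd1, cytosolic thioredoxin reductase, differed by 0.48 (SE 0.13, adjusted p = 0.26). All of these kept the 9 rats apart, as did Akr1b8, an aldo-keto reductase, at 0.90 (SE 0.28, adjusted p = 0.44), and Gpx2, an epithelial glutathione peroxidase, at 0.31 (SE 0.14, adjusted p = 0.76). Nqo1, the quinone reductase often used as the pathway's standard readout, differed by only 0.27 (SE 0.14, adjusted p = 0.82) and its groups overlapped, with 12.93 to 13.07 in exposed rats and 12.50 to 12.93 in air. The 5 largest differences among the targets were those of Srxn1, Hmox1, Slc7a11, Akr1b8 and Osgin1. Gclc was called with the air rats of 5, 8 and 19 days as the control (limma adjusted p = 0.045). Gclm, Txnrd1, Akr1b8, Gpx2 and Nqo1 were not called with that control, with adjusted p values of 0.068 to 0.35.

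Among 8 regulators and small Maf factors, 1 rose, Maff, beside 0.0422% of all genes, and 3 kept the groups apart in the upward direction, beside 1.27% of all genes. Mafk, a second small Maf gene, differed by 0.41 (SE 0.13, limma adjusted p = 0.43) with groups that did not overlap, and Mafg differed by 0.16 (SE 0.11). The sensor Keap1 and the factor's own gene Nfe2l2 differed by 0.13 (SE 0.06) and 0.12 (SE 0.07), with groups apart for Keap1 and overlapping for Nfe2l2, and Bach1, a repressor at the same DNA element, by 0.06 (SE 0.09). None of these 5 passed the test, so Maff was the only regulator on the list with a called change.

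**Figure D2:**
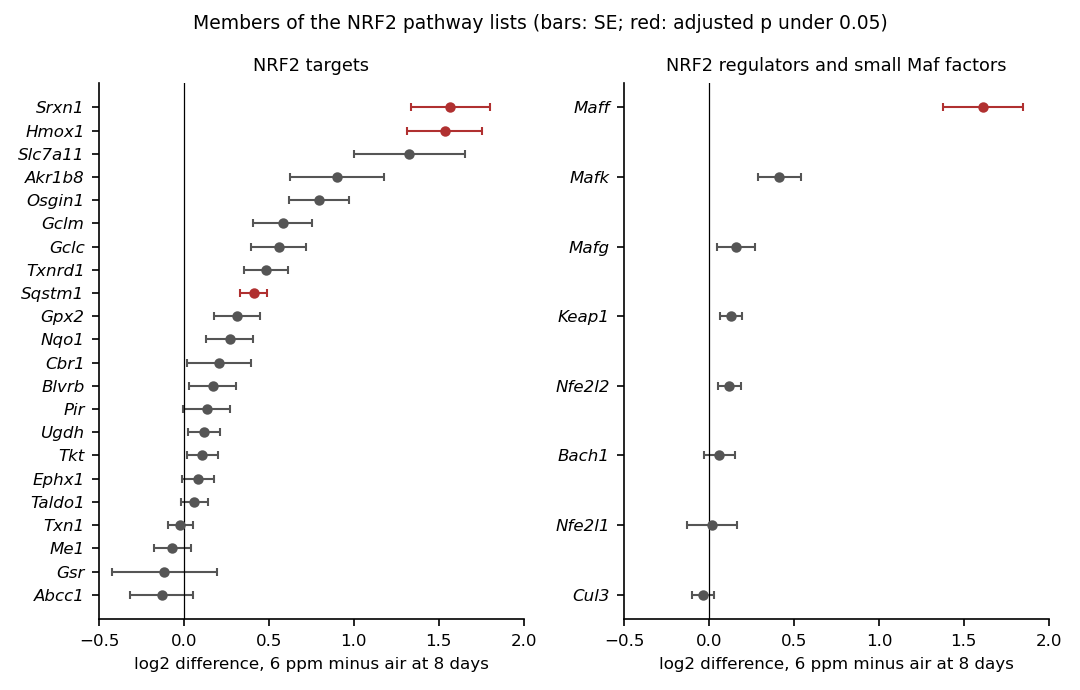
Log2 difference of 6 ppm minus air at 8 days (horizontal axes) for the 22 measured NRF2 targets on the left and the 8 regulators and small Maf factors on the right; points are the fitted differences, bars their SE, and red marks a limma adjusted p under 0.05. Srxn1 (1.57), Hmox1 (1.54) and Maff (1.62) lie furthest to the right.

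The concentrations below 6 ppm shared the same 5 air rats, so their values are given side by side and not counted as separate support. limma called 0 probe sets at 2 ppm, with 1317 (4.24% of those tested) at an unadjusted p under 0.05, and 0 at 0.7 ppm, with 1021 (3.29%). The smallest limma adjusted p was 0.055 at 2 ppm and 0.27 at 0.7 ppm. Hmox1 differed from air by 0.77 at 2 ppm and -0.07 at 0.7 ppm, beside 1.54 at 6 ppm. Maff differed by 1.09 and 0.32, beside 1.62. Srxn1 differed by 0.94 and 0.01, beside 1.57.

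At 2 ppm the values of Hmox1 and Tnfrsf12a overlapped with air, and those of Srxn1 with 6 ppm. Hmox1 was at 8.10, 8.84, 8.92 and 8.96 in the 2 ppm rats, all under the lowest 6 ppm rat at 9.22, and 1 of them lay within the air range. Srxn1 was at 8.80, 9.0, 9.40 and 9.75 at 2 ppm, above every air rat, and the upper pair reached past the lowest 6 ppm rat at 9.18. Tnfrsf12a was at 7.56, 7.60, 8.35 and 8.40 at 2 ppm, all inside the air range and under every 6 ppm rat. None of these genes passed the threshold in the direct test of 6 against 2 ppm, with limma adjusted p values of 0.27 or more. The differences were 0.77 (SE 0.23) for Hmox1, 0.63 (SE 0.25) for Srxn1, 0.52 (SE 0.25) for Maff and 0.85 (SE 0.19) for Tnfrsf12a.

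The direct test of 6 against 2 ppm called 1 probe set of 31042, 0.00322% of those tested, and 1042 (3.36%) had an unadjusted p under 0.05. It was 1380259_at, a dim probe set annotated to Cep57l1, a relative of the centrosomal protein CEP57. It was at 4.74, 4.41, 4.76 and 4.90 with 6 ppm and at 5.38, 5.19, 5.25 and 5.25 in animals 220, 221, 222 and 223 at 2 ppm. The groups were apart, with a difference of -0.56 (SE 0.11, limma adjusted p = 0.026). The call was lost in the fit of the 82 arrays of array set 1 and in 7 of the 8 fits that left out 1 rat (all but that without animal 301), and its difference from air at 8 days was -0.39 (adjusted p = 0.25).

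Across time, each against its own air rats, Hmox1, Maff, Srxn1 and Tnfrsf12a had larger differences from air at 6 hours, 5 days, 8 days and 19 days than at 24 hours, and Gpr83 was not called at the other times. Of the 9 probe sets called at 8 days, 7 were among the 76 called at 6 hours (0.245% of those tested), 0 were called at 24 hours, when 1 probe set in all was (0.00322%), 2 were among the 37 called at 5 days (0.119%) and 4 among the 128 called at 19 days (0.412%). Hmox1 was higher by 1.60 at 6 hours, 0.14 at 24 hours, 0.99 at 5 days and 1.51 at 19 days, with 1.54 at 8 days. Maff was higher by 1.54, 0.23, 0.89 and 1.66 at these times, with 1.62 at 8 days. Srxn1 was higher by 1.07, 0.23, 1.48 and 2.08, with 1.57 at 8 days. Hmox1, Maff, Srxn1 and Tnfrsf12a were called at 6 hours, 8 days and 19 days alike, and Hmox1 and Srxn1 also at 5 days.

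The tests of the difference in effect between times gave few calls. limma called 0 probe sets for 8 days against 6 hours, with 2654 (8.55% of those tested) at an unadjusted p under 0.05, and 0 for 8 days against 19 days, with 2742 (8.83%). For Hmox1 the 8 day effect minus the 6 hour effect was -0.07 (SE 0.32) and minus the 19 day effect 0.03 (SE 0.32). For Srxn1 these were 0.50 (SE 0.34) and -0.51 (SE 0.34). Gpr83 differed from air by -0.04 at 6 hours, 0.17 at 24 hours, 0.09 at 5 days and -0.09 at 19 days, and the test of its 8 day effect against the 19 day effect gave 0.95 (SE 0.24, limma adjusted p = 0.24). Its 19 day values rest on 1 air rat: animal 77 was at 5.18 and the other 3 were at 3.79 to 4.01. Without animal 77 the Gpr83 difference at 19 days was 0.24 and the 8 day effect minus the 19 day effect 0.63 (SE 0.22, limma adjusted p = 0.39).

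Against the 5 day effect, 3 probe sets were lower at 8 days, 0.00966% of those tested, and 1467 (4.73%) had an unadjusted p under 0.05. None of the 3 is paired with a gene in the annotation used here. 1392613_at was at 7.45, 7.19, 7.68 and 6.99 in the 6 ppm rats of 5 days (animals 293, 294, 296 and 297) and at 4.48, 4.46, 4.40 and 4.30 in the air rats of 5 days (animals 60 to 63). At 8 days the same probe set was at 4.34, 4.18, 4.49 and 4.41 with 6 ppm and at 4.31, 4.28, 4.01, 3.66 and 4.18 in air. The 5 day groups lay far apart, while at 8 days the exposed and air rats overlapped. The 8 day effect minus the 5 day effect was -2.65 (SE 0.39, limma adjusted p = 7.5e-05).

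1380306_at ran the same way: it was at 9.07 to 9.64 with 6 ppm against 6.30 to 6.65 in air at 5 days, and at 6.31 to 7.37 against 5.87 to 6.76 at 8 days. Its difference in effect was -2.47 (SE 0.43, limma adjusted p = 0.0023). 1397225_at was at 6.32 to 6.54 against 4.21 to 4.62 at 5 days and at 4.47 to 4.81 against 4.39 to 4.61 at 8 days, with a difference in effect of -1.77 (SE 0.31, adjusted p = 0.0023). All 3 were also higher with 6 ppm at 6 hours, by 1.76, 1.82 and 1.36, and called there. At 24 hours they differed by 0.22, 0.29 and 0.27, and at 19 days by 0.09, 0.43 and 0.29, with no call at either time.

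**Figure D3:**
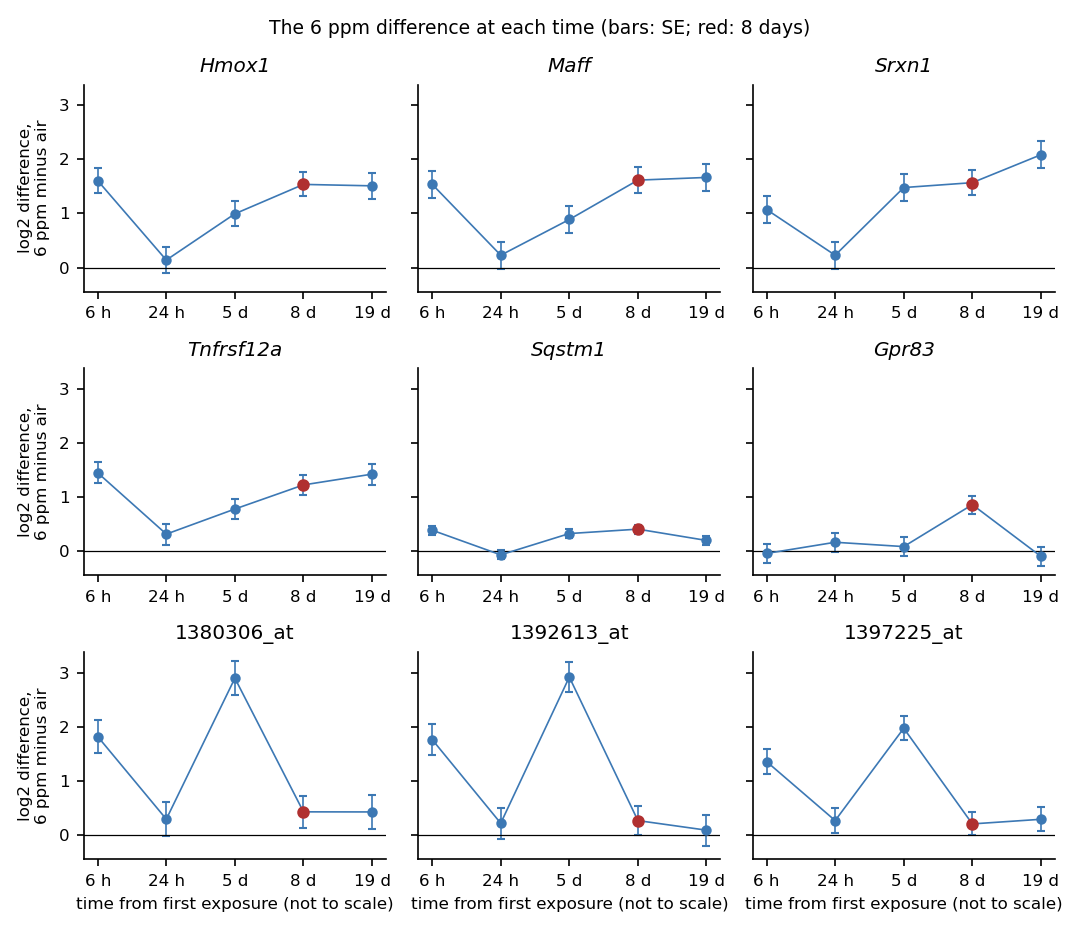
Log2 difference of 6 ppm minus air (vertical axes) at 6 hours, 24 hours, 5 days, 8 days and 19 days (horizontal axes, not to scale) for the 6 genes that rose at 8 days and the 3 probe sets whose effect was smaller at 8 days than at 5 days; bars are SE and red marks 8 days. Hmox1, Maff, Srxn1 and Tnfrsf12a dip at 24 hours and are high at 8 days, while the 3 probe sets are high at 6 hours and 5 days and near 0 at 8 days.

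Some genes called at 6 hours or 5 days under 6 ppm had smaller differences at 8 days that did not pass the test. Others did not: Slc7a11, called at 5 days with 1.58, was 1.33 above air at 8 days, and Txnrd1, called at 6 hours with 0.60, was 0.48 above. Ooep, an oocyte protein gene, differed by -0.37 (SE 0.21, limma adjusted p = 0.87) at 8 days, beside -1.30 at 6 hours, -1.14 at 5 days and -1.22 at 19 days. Per2, a clock repressor, differed by 0.26 (SE 0.13), beside 0.61 at 6 hours and 0.91 at 5 days. Bmal1, the clock activator, differed by -0.23 (SE 0.13), beside -0.74 at 6 hours, -0.64 at 5 days and -0.59 at 19 days. Its exposed rats were at 6.09 to 6.42 and its air rats at 6.46 to 6.65, so that the groups did not overlap. Of 21 clock genes, 0 were called, with Npas2 at -0.34 (SE 0.15), Wee1, whose groups did not overlap, at 0.30 (SE 0.14), Tef at 0.25 (SE 0.11) and Dbp at 0.22 (SE 0.15).

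Mthfd2, a mitochondrial folate enzyme, differed by 0.06 (SE 0.10) at 8 days beside 0.56 at 5 days. Coq10b, a coenzyme Q-binding protein, differed by 0.28 (SE 0.13) beside 0.56 at 6 hours, 0.68 at 5 days and 0.66 at 19 days. Ppargc1a, a coactivator of mitochondrial biogenesis, differed by -0.25 (SE 0.15) beside 0.69 at 5 days. For none of Ooep, Per2, Bmal1, Mthfd2, Coq10b and Ppargc1a did the test of the 8 day effect against the 5 day effect pass the threshold.

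The genes that handle formaldehyde itself showed no called change at 8 days. Adh5, the glutathione-dependent formaldehyde dehydrogenase, was at 10.85 to 11.40 with 6 ppm and at 11.02 to 11.49 in air, a difference of -0.14 (SE 0.13, limma adjusted p = 0.92). Aldh2, the mitochondrial aldehyde dehydrogenase, differed by 0.09 (SE 0.15, adjusted p = 0.95). Of 20 measured genes of aldehyde metabolism 0 were called, with a median of 0.13, and 2 kept the groups apart in the upward direction, Akr1b8 and Akr7a3, beside 1.27% of all genes. Akr7a3, an aflatoxin aldehyde reductase, was at 7.87, 7.80, 8.37 and 7.44 with 6 ppm. In air Akr7a3 was at 6.90, 7.08, 6.78, 6.87 and 7.08. Every exposed rat was higher, and the difference of 0.93 (SE 0.25) had an adjusted p of 0.26. Against the air rats of 5, 8 and 19 days Akr7a3 was called, at 0.91 (limma adjusted p = 0.041). Adh5, Aldh2 and Akr1b8 were not called with that control.

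Genes of DNA damage and protein damage likewise gave no calls. Of 19 measured genes of crosslink repair 0 were called in either direction, with a median of -0.06. Of 15 p53 targets 0 were called: Cdkn1a, the p21 cell cycle inhibitor, differed by 0.01 (SE 0.19), and Aen, a p53-induced nuclease, was higher by 0.31 (SE 0.11, limma adjusted p = 0.62) with groups that did not overlap. Of 15 cytosolic heat shock chaperones 0 were called, and 7 had an unadjusted p under 0.05 in the upward direction, beside 4.13% of all genes. The inducible chaperone Hspa1a was not among them, at -0.02 (SE 0.18). Dnaja1, Stip1, Hsp90ab1 and Hspb8 differed by 0.20 (SE 0.08), 0.16 (SE 0.06), 0.13 (SE 0.05) and 0.28 (SE 0.12), and the groups of each overlapped. Hsp90ab1 was called against the air rats of 5, 8 and 19 days (limma adjusted p = 0.044), and Dnaja1, Stip1, Hspb8 and Hspa1a were not.

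Cell cycle genes gave no calls, and more of their differences were below 0 than above. Of 34 measured genes 22 were below 0 and 12 above, 0 were called, 13 had an unadjusted p under 0.05 in the downward direction, beside 2.60% of all genes, and the median was -0.14. Ccnb2, a mitotic cyclin, was at 6.97, 7.05, 6.91 and 6.76 with 6 ppm. In air Ccnb2 was at 8.11, 7.22, 7.46, 8.02 and 7.43. The groups did not overlap, and air animals 64 and 67 were the highest. The Ccnb2 difference was -0.73 (SE 0.20, limma adjusted p = 0.35).

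The same air animals, 64 and 67, were the highest for Ccnb1, Plk1, Kif20a, Top2a and Mki67 as well. Ccnb1, the other mitotic cyclin, differed by -0.41 (SE 0.11, limma adjusted p = 0.26). Plk1, a mitotic kinase, differed by -0.38 (SE 0.11), Kif20a, a cytokinesis motor, by -0.61 (SE 0.18) and Top2a, the mitotic topoisomerase, by -0.49 (SE 0.15), with adjusted p values of 0.40 to 0.43. Ccnb1, Ccnb2, Kif20a, Top2a and Ccna2 were the 5 members whose groups did not overlap, beside 0.577% of all genes in that direction. Mki67, the proliferation marker Ki-67, differed by -0.32 (SE 0.23) with overlapping groups.

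Esco2, a cohesin acetyltransferase of S phase, had the smallest adjusted p of all lower probe sets and is named after its values were seen. Its probe set is dim, with a mean log2 value of 4.45 over the 98 arrays. Esco2 was at 4.24, 4.38, 4.15 and 4.26 with 6 ppm. In air Esco2 was at 5.01, 4.57, 4.64, 5.02 and 4.56. The groups did not overlap, and animals 64 and 67 were again the highest, for a difference of -0.50 (SE 0.11, limma adjusted p = 0.060). With the air rats of 5, 8 and 19 days as the control, Esco2 differed by -0.30 (limma adjusted p = 0.21) and Ccnb2 by -0.35. The cell cycle median was 0.03 with that control, so the sign of the list's median depended on the control rats. At the other times the cell cycle median of 6 ppm against air was -0.19 at 6 hours, 0.12 at 24 hours, 0.11 at 5 days and 0.22 at 19 days.

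Ribosome biogenesis genes leaned the other way. Of 26 measured genes 0 were called, all 26 were above 0, 13 had an unadjusted p under 0.05 in the upward direction, beside 4.13% of all genes, and the median was 0.16. Ddx21, a nucleolar helicase, was at 9.31, 8.81, 9.08 and 9.03 with 6 ppm. In air Ddx21 was at 8.89, 8.69, 8.94, 8.11 and 8.65. The groups overlapped, and air animal 67 was the lowest. The Ddx21 difference was 0.40 (SE 0.13, limma adjusted p = 0.48), and Rrs1, a ribosome assembly factor, also differed by 0.40 (SE 0.14). Polr1b, a subunit of RNA polymerase I, and Mybbp1a, a nucleolar protein, kept the groups apart, at 0.32 (SE 0.11) and 0.22 (SE 0.08), with adjusted p values of 0.59 and 0.61.

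Inflammatory mediators had mostly positive differences, with large spread between animals and no calls. Of 29 measured genes 27 were above 0, 6 had an unadjusted p under 0.05 in the upward direction, beside 4.13% of all genes, and the median was 0.30. That median was 0.10 without animal 298 and 0.50 without animal 299. Ptgs2, the inducible cyclooxygenase 2, was at 9.11, 6.99, 8.74 and 9.07 with 6 ppm. In air Ptgs2 was at 7.68, 6.54, 6.47, 6.62 and 5.87. All exposed rats but animal 299 were above every air rat, and animal 64 was the highest in air. The Ptgs2 difference was 1.84 (SE 0.49, 3.59-fold), the largest of the list, with a limma adjusted p of 0.26. Without animal 299 it was 2.34, with an adjusted p of 0.044. Against the air rats of 5, 8 and 19 days the Ptgs2 difference was 1.75, with a limma adjusted p of 0.043.

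The chemokine gene Ccl20 differed by 0.84 (SE 0.34) and the granulocyte factor Csf3 by 0.86 (SE 0.30), with overlapping groups; without animal 300 the Csf3 difference was 0.44. Cxcl11, an interferon-induced chemokine, was at 7.41, 4.82, 4.77 and 4.46 with 6 ppm and at 4.03 to 4.51 in air, so its difference of 1.11 (SE 0.43) rested on animal 298 and was 0.43 without it. Unlike Ptgs2, none of Ccl20, Csf3 and Cxcl11 was called against the air rats of 5, 8 and 19 days. The neutrophil list mean was 6.94, 5.52, 6.76 and 6.43 in exposed rats and 5.72 to 6.55 in air, and the macrophage list mean was 7.71, 6.80, 7.18 and 7.50 against 6.71 to 7.33. Of 10 neutrophil and 18 macrophage genes 0 were called; Lcn2, lipocalin 2, differed by 0.80 (SE 0.30) and Cd14, a monocyte receptor, by 0.49 (SE 0.19), with groups that overlapped for Lcn2 and were apart for Cd14. Animal 299 had the lowest mean of both lists among exposed rats, as it had the lowest Ptgs2. The part of these cells in the inflammatory genes was not tested, and more cells of a type cannot be told apart from more RNA per cell in such samples.

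In the list of growth factor and wound repair genes, 1 of 24 rose, Tnfrsf12a, beside 0.0422% of all genes. Areg, the EGF receptor ligand amphiregulin, was at 5.69, 4.47, 7.14 and 5.00 with 6 ppm and at 3.56 to 5.07 in air, a difference of 1.00 (SE 0.49, limma adjusted p = 0.81) that was 0.48 without animal 300. Plaur, the urokinase receptor, differed by 0.86 (SE 0.35, adjusted p = 0.71) and Spry4, a feedback inhibitor of receptor signalling, by 0.21 (SE 0.08, adjusted p = 0.70). Areg and Plaur were highest in animal 300, and the groups of all 3 overlapped.

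**Figure D4:**
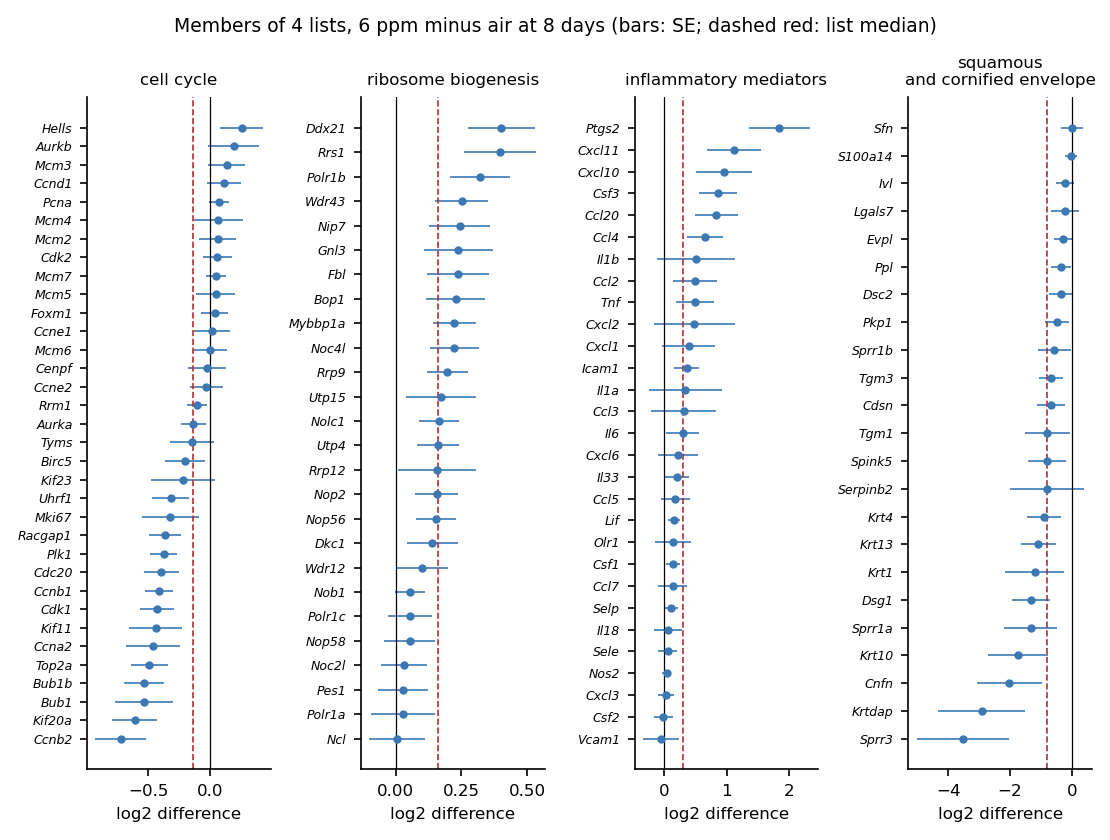
Log2 difference of 6 ppm minus air at 8 days (horizontal axes, with a scale of its own in each panel) for the measured members of 4 lists; points are fitted differences, bars SE, and the dashed red line the list's median. The medians are -0.14 for cell cycle, 0.16 for ribosome biogenesis, 0.30 for inflammatory mediators and -0.79 for squamous genes, and no member of these 4 lists passed the test.

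Squamous differentiation genes had the largest differences and the largest spread. Of 23 measured genes 0 were called, 23 were below 0, 3 had an unadjusted p under 0.05 in the downward direction, beside 2.60% of all genes, and the median was -0.79. Sprr3, a cornified envelope protein, was at 4.62, 4.55, 10.51 and 4.59 with 6 ppm. In air Sprr3 was at 10.37, 5.91, 9.75, 10.57 and 11.39. The values were either low or high: exposed animal 300 was as high as air, and air animal 65 was nearly as low as the exposed rats. The Sprr3 difference was -3.53 (SE 1.49, limma adjusted p = 0.73).

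Krtdap, a keratinocyte differentiation protein, differed by -2.92 (SE 1.40), Dsg1, a desmosomal cadherin, by -1.33 (SE 0.61) and Krt13, a keratin of stratified epithelium, by -1.08 (SE 0.56), and none passed the test. The list mean per animal was 8.25, 7.81, 9.39 and 7.82 with 6 ppm and 9.72, 7.95, 9.50, 9.55 and 9.70 in air. With the air rats of 5, 8 and 19 days as control the list's median was -0.15. At 2 ppm 1 of 4 rats had Sprr3 at 4.29 and the other 3 were at 11.19 to 11.55. Krt5, the basal cell keratin, differed by -0.36 (SE 0.25, limma adjusted p = 0.89) with groups that did not overlap. The basal cell list had 13 measured genes, with 0 called, 5 above 0, 8 below and a median of -0.02. Krt5 was its only member whose groups did not overlap, beside 0.577% of all genes in that direction. With the air rats of 5, 8 and 19 days as control Krt5 differed by 0.04 (SE 0.23). Foxj1, the ciliated cell factor, differed by -0.06 (SE 0.20) from air at 8 days.

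The labelled tissue was checked against its markers. Krt5 was at 12.06 to 12.75 and Foxj1 at 9.12 to 10.11 in all 9 rats. Omp, the marker protein of olfactory neurons, was at 11.41, 12.89, 10.12 and 11.55 with 6 ppm and at 11.89, 13.07, 11.98, 12.40 and 12.14 in air, although the labels say that olfactory epithelium was discarded. Cnga2 and Gnal of the olfactory signal chain and Cyp2g1 of olfactory supporting cells were highest in animal 65 in air and in animal 299 with 6 ppm, and lowest in animal 300. Of 18 olfactory genes 0 were called and the median was -0.62, which was -0.17 without animal 300 and -1.03 without animal 299, with list means of 8.52 to 10.69 against 9.38 to 10.99. With the olfactory list mean as a covariate, limma called 13 probe sets and with the squamous list mean 21, in each case with the 9 among them.

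**Figure D5:**
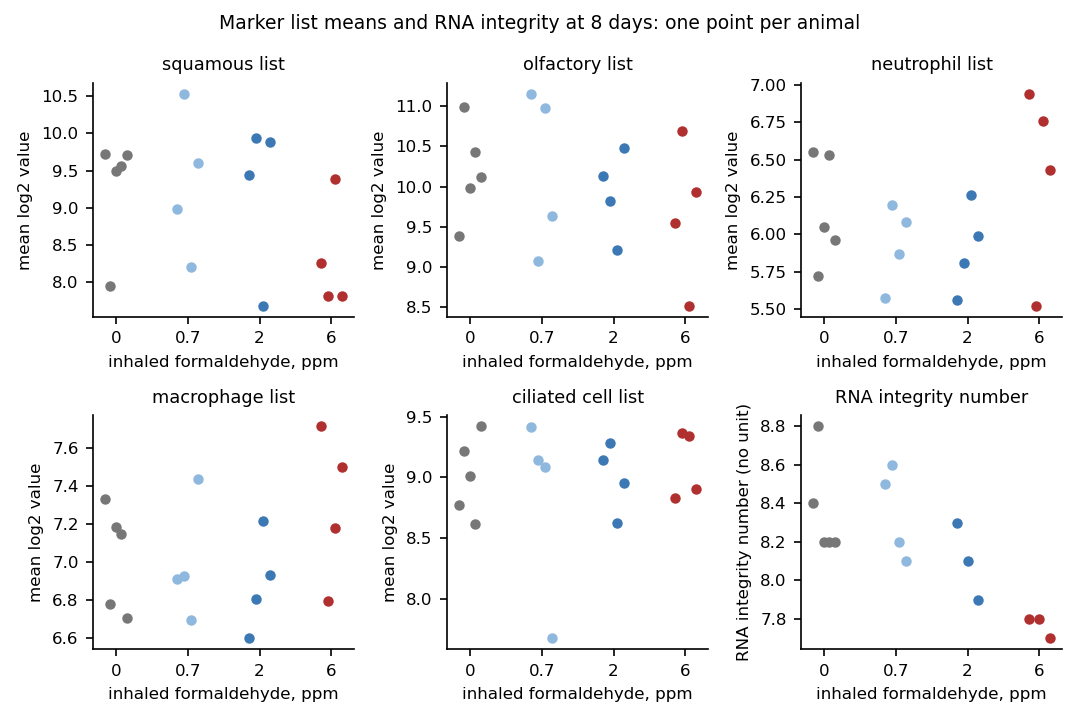
Mean log2 value of 5 marker lists and the RNA integrity number (vertical axes) by inhaled formaldehyde in ppm at 8 days (horizontal axes); each point is 1 animal, and a rat with no RNA integrity number has no point in that panel. The marker lists overlap between 6 ppm and air, while the RNA integrity numbers of 7.7 to 7.8 at 6 ppm lie below those of air at 8.2 to 8.8.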

How the data were processed

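RNA of nasal epithelial cells was hybridised to Affymetrix Rat230_2 arrays, 1 per animal. The deposited values are log2 and lie between 2.67 and 14.83; array medians of 5.93 to 6.07 are those of arrays already normalized against each other, and the sources used here do not give the authors' method. No further normalization was applied. After 57 control probe sets were left out, limma 3.58.1 (R 4.3.3) fitted all 98 arrays with 24 groups and no covariate, with Benjamini-Hochberg adjustment across 31042 probe sets; calls are adjusted p-values under 0.05. All p-values in the text come from this fit or the stated alternative of it. The annotation pairs 20826 probe sets with 1 symbol, 436 with several and 9780 with none; each gene stands for its brightest probe set on average, giving 14217 genes. "Rose" and "fell" are used of called probe sets, and groups that do not overlap have every animal of one above every animal of the other. The number of arrays, 4 against 5, limits the precision. The p-values rest on the spread between animals within groups, estimated over all 98 arrays.

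The comparison, its members and the gene lists were chosen with earlier results of these data known. Named genes are the called ones, up to 4 members of a list by smallest p, members behind a count of 5 or fewer, and a fixed set of pathway, clock and marker genes. The fit was also run on simulated data with independent noise and, for each probe set, the same spread in every group. The real spread differed between groups for some genes, such as Gpr83 (SD 0.77 with 6 ppm and 0.07 in air). That run therefore cannot judge the calls given here. Motifs were searched on both strands of RefSeq GRCr8 promoter windows, the first listed for a gene; 15 of 16 genes asked for had a window.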

Additional observations from a re-analysis of the deposited data

Results flagged for a closer look

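In 10 of 173 groups of named values, 1 animal lay far from the rest of its group, a rate near the 1 in 20 that chance gives. Of the exposed rats, animal 300 stood apart for Sprr3, at 10.51 with the next at 4.62, for Ccna2, at 5.11 with the next at 5.43, and for Hspb8, at 11.13 with the next at 10.92. Animal 298 stood apart for Cxcl11, at 7.41 with the next at 4.82. Animal 299 stood apart for Ccnb1, at 7.01 with the next at 7.17. Of the air rats, animal 65 was far below the others for Krtdap, at 7.05 with the next at 11.05, and for the squamous list mean, at 7.95 with the next at 9.50, and above them for Ppargc1a, at 7.42 with the next at 7.27. Animal 67 was far above the others for Csf3, at 5.13 with the next at 4.31, and below them for Tnfsf12, at 6.57 with the next at 7.25.

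The 6 ppm effect differed between times for 3 probe sets with no gene in the annotation used here. The 8 day effect minus the 5 day effect was -2.65 for 1392613_at, -2.47 for 1380306_at and -1.77 for 1397225_at, each past the limma threshold for the difference itself.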

How the results depend on the processing

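Against 9 called probe sets, limma called 0 in the fit of the 9 arrays and 0 in that of the 17 arrays of 8 days, 16 with array weights (8 of the 9 among them), 47 with the air rats of 5, 8 and 19 days as the control (all 9 among them), and 21 with the squamous list mean as a covariate, an alternative chosen after seeing the data like that with the olfactory mean. Leaving out 1 rat gave 4 to 15. The other alternatives (array set 1, cyclic loess, a mean log2 value of at least 6, intensity trend with robust prior, RNA integrity number) gave 7 to 13. For the 5 day difference, 1 of the 3 probe sets was called among those with a mean of at least 6, and leaving out 1 rat gave 3 to 5; for 6 hours it gave 0 to 8 and for 19 days 0 to 1. For 6 against 2 ppm, 0 were called in array set 1 and 0 with a mean of at least 6, and leaving out 1 rat gave 0 to 2. The median difference over all probe sets was 0.01 as deposited and -0.01 after cyclic loess. No paired analysis was possible because no animal number occurs in more than 1 group. Dim probe sets such as Gpr83 lie near the lower end of the scale, where differences are compressed.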
